A study of Rattus norvegicus with 6 samples.

Results

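Cholesterol synthesis was followed in rat ovaries through 8 listed enzymes: Acat2, Hmgcs1, Mvd, Idi1, Fdps, Fdft1, Sqle and Dhcr7. The members were found as every probe set of the array whose annotation gives exactly 1 symbol equal to one of these names. This rule found 15 probe sets for 7 of the 8 genes, among 4736 named genes on the array; Hmgcs1 was not analysed here. The working name of the group also speaks of uptake, but all the members are enzymes of synthesis, so uptake genes are described separately as a list.

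Expression was measured in total RNA of whole ovaries on 6 Affymetrix rat genome arrays, on which a probe set, a group of short oligonucleotides, reads the intensity of 1 transcript or of several similar ones. The 3 groups of 2 arrays were ovaries of female pups removed on the day of birth (postnatal day 0, P0), ovaries removed on postnatal day 4 (P4), and ovaries removed on day 0 and then kept 7 days in culture. Cultured ovaries floated on filters in DMEM and Ham's F-12 with bovine serum albumin, Albumax (a lipid-rich albumin), transferrin, insulin, ascorbic acid and antibiotics, and the labels list no serum. No genotype or strain is given in the labels, and each array held RNA from a separate pool of about 20 ovaries. The series' design text names progesterone-treated cultures; no sample label does, so both cultured arrays are taken as 1 condition, and whether either was treated cannot be told here.

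Cells make cholesterol from acetyl-CoA by way of mevalonate. Early enzymes build the isoprenoid farnesyl diphosphate, squalene synthase joins a pair of these, and later enzymes oxidise, cyclise and trim the product into cholesterol. The genes are classical targets of the SREBP transcription factors, which are released when membrane sterol is low, and the ovary uses cholesterol as the precursor of all its steroid hormones.

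The arrays had already been scaled by the authors, with a trimmed mean of 125.2 on each. The 2 arrays of a group had log2 intensities correlated at 0.962 to 0.969, a value taken over probe sets and not over independent samples. Ovarian markers were present: all 3 measured zona pellucida genes of the oocyte read above 20 on every array, and 20 is the highest intensity seen in 23 control probe sets with no spiked transcript. Among markers of steroid-making cells, Cyp11a1, the enzyme that starts steroid synthesis from cholesterol, did not exceed 20 on any array. The others measured, Star, Cyp17a1 and Lhcgr, did so on some or all arrays. Their highest readings were 137.4 for Star and 119.4 for Cyp17a1, both on P4 replicate 1, and 63.5 for Lhcgr on P0 replicate 1. The Cre control transcript, a bacteriophage sequence added to the hybridization mix, averaged 5517 at P0, 4524 at P4 and 3516 in culture. P0, at 6570.6 and 4463.2, overlapped with P4, at 4137.9 and 4909.2, and culture, at 3561.9 and 3469.9, lay below both. Its part in the results was not tested. In whole organs, fewer cells of a type and less RNA per cell cannot be told apart.

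Promoter sequences are shown for the members that passed a test in some comparison below, Dhcr7 and Idi1 (Sqle, the third, has no entry in the table used), because targets of SREBP usually carry its binding element beside CCAAT and GC boxes. The table, from RefSeq on build GRCr8, matched 6 of the 8 genes and gives 250 bases before to 50 after each gene's start. Capitals mark CCAAT (the box bound by NF-Y) and GGGCGG (the GC box bound by Sp1) read on either strand, so that ATTGG and CCGCCC are their forms on the other strand. Dhcr7 lies at chr1:208444184-208444483 on the plus strand, and Idi1 at chr17:66547475-66547774 on the minus strand.
Dhcr7: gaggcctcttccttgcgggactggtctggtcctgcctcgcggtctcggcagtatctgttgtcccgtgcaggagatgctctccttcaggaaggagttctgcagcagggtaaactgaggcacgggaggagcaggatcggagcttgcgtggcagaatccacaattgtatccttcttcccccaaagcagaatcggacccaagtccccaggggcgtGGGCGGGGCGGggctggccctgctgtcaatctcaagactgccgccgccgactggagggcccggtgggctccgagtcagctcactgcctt
Idi1: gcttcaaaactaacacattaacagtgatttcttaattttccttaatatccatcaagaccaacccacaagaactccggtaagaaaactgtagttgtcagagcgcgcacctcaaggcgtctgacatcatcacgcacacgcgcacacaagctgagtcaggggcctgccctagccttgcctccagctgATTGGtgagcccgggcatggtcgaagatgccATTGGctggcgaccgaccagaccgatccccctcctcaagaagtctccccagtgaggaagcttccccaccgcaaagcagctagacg
The Dhcr7 window held 2 overlapping GC boxes, which begin 39 and 34 bases before the start, and no CCAAT. The Idi1 window held 2 CCAAT boxes on the other strand, at 66 and 35 bases before the start, and no GC box. Over the 6 matched genes, 4 windows held CCAAT, against 37.5% of all 33465 promoters in the table, and 5 held GGGCGG, against 33.1%. A sterol element spelled TCACNCCAC, searched on both strands, was in none of the 6 windows and in 1.12% of all promoters. A match in these letters is a description and not a binding site.

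**Figure D1:**
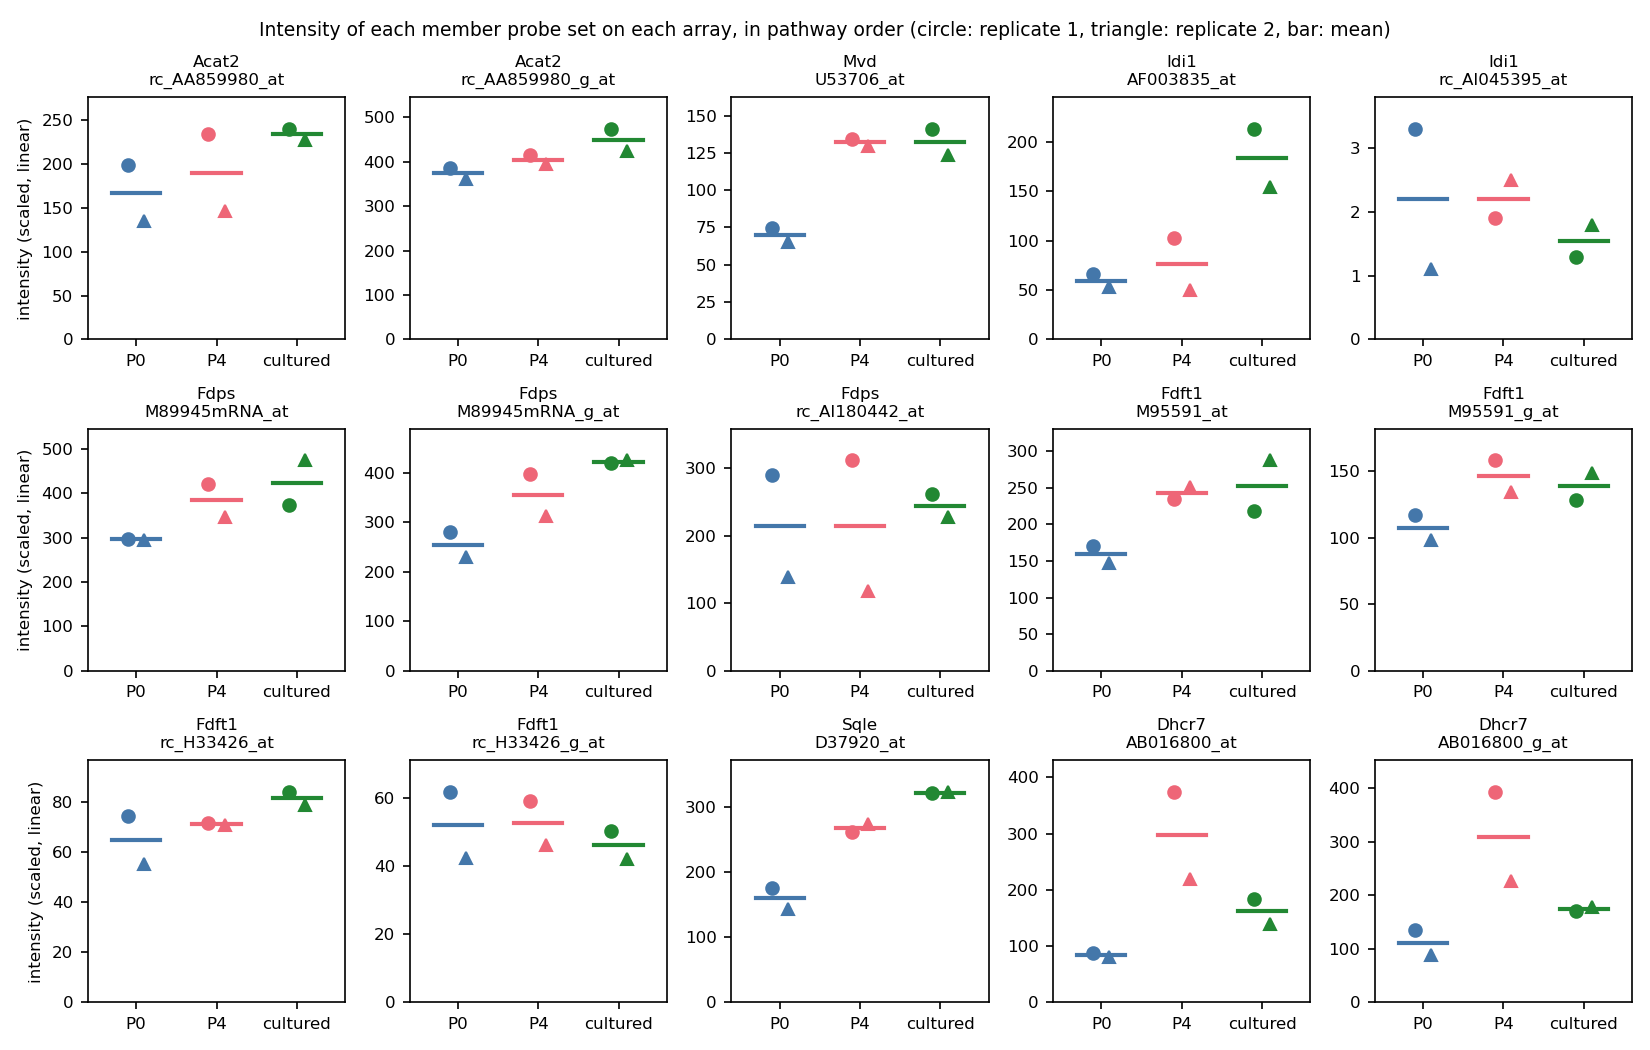
Intensity of the 15 member probe sets on each of the 6 arrays, in pathway order, with a vertical axis from 0 in scaled linear units, circles and triangles for replicates 1 and 2 and a bar for the group mean. Sqle lies at 143.9 to 175.4 at P0 and at 321.2 and 323 in culture, while both Dhcr7 probe sets are highest at P4.

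The newborn and day 4 ovaries span the days when rat primordial follicles form, the process in the series title. Between them, 1 member probe set passed, that of Dhcr7, and it was higher at P4. Calls were made with limma over 6118 probe sets at a Benjamini-Hochberg adjusted p under 0.05, and log2 changes are on the scale of log2(intensity + 7.7). Of all probe sets tested, 0.85% were called higher and 0.229% lower at P4, against 1 and 0 of the 14 tested member probe sets. Both P4 arrays exceeded both P0 arrays for 9 of these 14, where 18.6% of all tested did so, and both lay below for 0 of 14, against 25.7%. The median log2 change over all 15 member probe sets, the untested dim one of Idi1 included, was 0.36. It was -0.07 over all 8740 that are not controls. The 15 come from 10 source sequences of 7 genes, so they are not 15 separate readings.

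Acat2, the cytosolic thiolase that joins acetyl-CoA units at the start of the route, has a pair of probe sets made from 1 source sequence. On rc_AA859980_g_at it read 385.4 and 362.2 at P0, 414.3 and 395.3 at P4, and 473.8 and 423.5 in culture. The groups did not overlap, but the steps were small: log2 changes were 0.11 for P4 against P0 (SE 0.19, limma adjusted p = 0.871) and 0.26 for culture against P0 (SE 0.19, limma adjusted p = 0.482). Its partner rc_AA859980_at read 198.6 and 135 at P0 and 233.4 and 146.2 at P4, so that replicate 1 exceeded replicate 2 by more than P4 exceeded P0. In culture it read 239.7 and 227.5, above both P0 arrays and overlapping with P4.

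Mvd decarboxylates mevalonate diphosphate to isopentenyl diphosphate, the C5 unit of all isoprenoids. Its probe set U53706_at read 74.7 and 65.2 at P0, 134.3 and 129.8 at P4, and 141 and 123.6 in culture. P4 and cultured arrays thus overlapped, and all of them lay above P0. The log2 change from P0 was 0.85 in each case (SE 0.21), with a limma adjusted p = 0.105 at P4 and a limma adjusted p = 0.0515 in culture. Between culture and P4 the difference was 0.00, with a 95% confidence interval from -0.48 to 0.48.

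Idi1 isomerises isopentenyl diphosphate to dimethylallyl diphosphate, the primer for chain growth. On AF003835_at it read 65.8 and 53.2 at P0, 102.9 and 49.6 at P4, and 212.8 and 154.5 in culture. The means were 59.5 ± 8.91, 76.25 ± 37.7 and 183.7 ± 41.2 (SD, n = 2). P0 and P4 overlapped, because P4 replicate 2 was the lowest of all arrays, and both cultured arrays were the highest. Against P0 the log2 change was 1.50 in culture (SE 0.32, limma adjusted p = 0.029, both arrays higher) and 0.25 at P4 (SE 0.32, limma adjusted p = 0.826). The other Idi1 probe set, rc_AI045395_at, read 1.1 to 3.3 on all arrays, below 20, and was left out of the tests as dim.

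Fdps makes farnesyl diphosphate, the branch point toward sterols, dolichol, ubiquinone and protein prenylation. M89945mRNA_g_at read 280.6 and 229.3 at P0, 398.7 and 313.6 at P4, and 420.4 and 425.1 in culture, with no overlap between any groups. Its log2 changes from P0 were 0.47 at P4 (SE 0.21, limma adjusted p = 0.392) and 0.72 in culture (SE 0.21, limma adjusted p = 0.0897). M89945mRNA_at, from the same source sequence, gave 0.36 and 0.50. The third probe set, rc_AI180442_at, read 290.8 and 138.6 at P0, 311.7 and 118.3 at P4, and 261.3 and 227.9 in culture. On this one the replicates of P0 and of P4 lay further apart than any groups, and its P4 change was -0.06 (SE 0.44).

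Fdft1, squalene synthase, is the first enzyme committed to sterols. On M95591_at it read 171.2 and 147.1 at P0, 234.3 and 251.2 at P4, and 218.3 and 287.4 in culture, so P4 and cultured arrays overlapped above P0. The log2 change was 0.59 at P4 (SE 0.22, limma adjusted p = 0.273) and 0.63 in culture (SE 0.22, limma adjusted p = 0.139). M95591_g_at gave 0.42 and 0.35. The other source sequence gave smaller values: rc_H33426_at read 55.2 to 84 over the 6 arrays with changes of 0.14 and 0.31, and rc_H33426_g_at read 42.1 to 61.8 with 0.02 and -0.14. The 4 probe sets of this gene therefore disagree in size, and in culture also in sign, and none passed.

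Sqle, squalene epoxidase, carries out an oxygen-dependent and rate-limiting step. D37920_at read 175.4 and 143.9 at P0, 260.8 and 273.4 at P4, and 321.2 and 323 in culture. The means were 159.7 ± 22.3, 267.1 ± 8.91 and 322.1 ± 1.27 (SD, n = 2). The 3 groups did not overlap, with P0 lowest and culture highest, and the cultured mean was 2.02 times that of P0. The log2 change was 0.99 in culture against P0 (SE 0.20, limma adjusted p = 0.0237), 0.72 at P4 against P0 (SE 0.20, limma adjusted p = 0.146) and 0.26 between culture and P4 (95% confidence interval from -0.19 to 0.72).

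Dhcr7 reduces 7-dehydrocholesterol to cholesterol, the last step of one branch of the route. AB016800_at read 87.8 and 80.7 at P0, 374.1 and 219.4 at P4, and 184.6 and 139.3 in culture, and AB016800_g_at, from the same source sequence, read 135.4 and 87.8, 393.2 and 226.5, and 170.0 and 179.2. On both, P4 was highest, P0 lowest and culture between them, without overlap. The first averaged 84.25 ± 5.02 at P0, 296.8 ± 109.4 at P4 and 161.9 ± 32.0 in culture (SD, n = 2), a ratio of means of 3.52 for P4 over P0. It rose at P4 by 1.68 on the log2 scale (SE 0.28, limma adjusted p = 0.0301, both arrays higher), and the second had a log2 change of 1.39 (SE 0.30, limma adjusted p = 0.0664). In culture the changes from P0 were 0.87 (SE 0.28, limma adjusted p = 0.111) and 0.64 (SE 0.30, limma adjusted p = 0.263). Culture stood below P4 by log2 differences of -0.81 and -0.75, which did not pass (limma adjusted p = 0.211 and 0.289).

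P0 and P4 arrays of the same replicate number have chip identifiers with the same ending. The labels state no pairing, so treating these arrays as pairs is an assumption. Within the pairs, Dhcr7 on AB016800_at differed by 2.00 in the first and 1.36 in the second, Mvd by 0.79 and 0.92, and Sqle by 0.55 and 0.89. Idi1 went opposite ways, at 0.59 and -0.09. With the replicate number as a block in a fit to these 4 arrays, 3 member probe sets passed at P4 against P0: both of Dhcr7 (limma adjusted p = 0.00236 and 0.003) and that of Mvd (limma adjusted p = 0.0351), while Sqle had a limma adjusted p = 0.0559. With the chip identifier as a random block over all 6 arrays, these 3 passed and so did Sqle (limma adjusted p = 0.0363). Both of these fits also called many more of all tested probe sets than the main fit, as counted at the end. With the replicate number as a block over all 6 arrays, only AB016800_at of Dhcr7 passed (limma adjusted p = 0.0334). In that fit AB016800_g_at (0.0803), Mvd (0.13) and Sqle (0.18) did not pass. At P0, replicate 1 read above replicate 2 on all 15 member probe sets, and at P4 on 12. It did so in both groups on 12 of 15 (80.0%), compared with 31.5% of all tested, with median offsets of 0.27 at P0 and 0.28 at P4 that are close to the median P4 change of 0.36. The part of this offset in the results was not tested beyond the block.

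**Figure D2:**
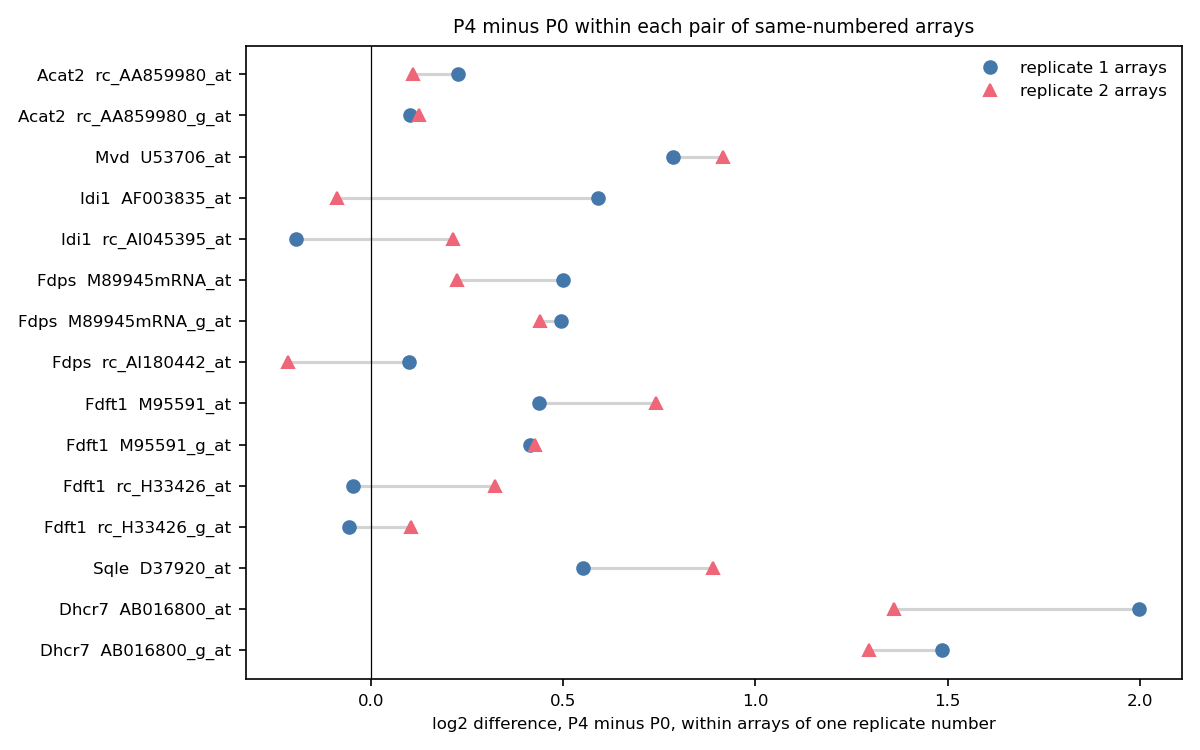
Log2 difference of P4 minus P0 for the 15 member probe sets within the arrays of replicate 1 (circles) and of replicate 2 (triangles), the horizontal axis in log2 units. Dhcr7 lies furthest right in both, at 1.36 to 2.00 on AB016800_at, and Idi1, rc_AI180442_at of Fdps and both rc_H33426 sets of Fdft1 have points on both sides of 0.

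Oocyte and granulosa markers moved between the same groups. The 3 zona genes summed to 873 to 979.2 at P0, 3517 to 3771 at P4 and 2486 to 2868 in culture, with all 3 called higher at P4. The 7 probe sets of 5 granulosa genes summed to 820.1 to 1096, 3023 to 4069 and 908.6 to 1034, with 2 of 5 genes called higher at P4, and those of 4 genes of steroid-making theca or interstitial cells to 96.8 to 168.6, 278.4 to 453.4 and 178.8 to 291.5. The adrenal cortex, which lies near the ovary, gave 12.2 to 52.7 over its 2 probe sets on all arrays. Cyp11b2 was at or below 20 throughout, and Cyp21a1 was above 20 only on P0 replicate 1 (42.8). The 10 liver probe sets gave 118.8 to 192.8, with 7 of them, Apoa2 among these, at or below 20 throughout. The others were of Serpina1 (rc_AI010453_at, 55.3 to 111), Ttr (rc_AA945169_at, up to 33.9) and Alb (rc_AA860062_at, up to 21.4). The part of these cell types in the members' values was not tested.

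The call of Dhcr7 at P4 held without P4 replicate 2 (adjusted p = 0.0171) and ended without P4 replicate 1 (0.15), P0 replicate 1 (0.0708), P0 replicate 2 (0.149), cultured replicate 1 (0.0759) or cultured replicate 2 (0.0757), all by limma. It also ended with no filter on dim probe sets (limma adjusted p = 0.0634), without the intensity trend (0.0586) and in a fit to the P0 and P4 arrays alone (0.0743).

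Cultured ovaries were compared with newborn ones, the tissue they started from. No fresh ovary as old as the cultured ones was measured. In comparisons with P0 or P4, culture and age therefore cannot be told apart. Idi1 and Sqle were higher in cultured ovaries, by 1.50 and 0.99 on the log2 scale, and Mvd lay just outside the threshold. Of all tested probe sets, 3.48% were called higher and 1.95% lower in culture, against 2 and 0 of the 14 tested member probe sets. Both cultured arrays exceeded both P0 arrays for 12 of the 14, where 21.3% of all tested did so, and both lay below for 0 of 14, against 29.0%. The exceptions were rc_AI180442_at of Fdps and rc_H33426_g_at of Fdft1. The median log2 change over the 15 member probe sets was 0.50, beside -0.06 over all that are not controls. Both comparisons share the P0 arrays, and culture against P4 shares the others, so the 3 are not independent.

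Along the route, the change from P0 in culture was 0.49 and 0.26 for Acat2, 0.85 for Mvd, 1.50 for Idi1, 0.27 to 0.72 for Fdps, -0.14 to 0.63 for Fdft1, 0.99 for Sqle and 0.64 and 0.87 for Dhcr7. At P4 the same series read 0.17 and 0.11, 0.85, 0.25, -0.06 to 0.47, 0.02 to 0.59, 0.72, and 1.68 and 1.39. The highest value thus stood at the isomerase in culture and at the terminal reductase at P4.

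**Figure D3:**
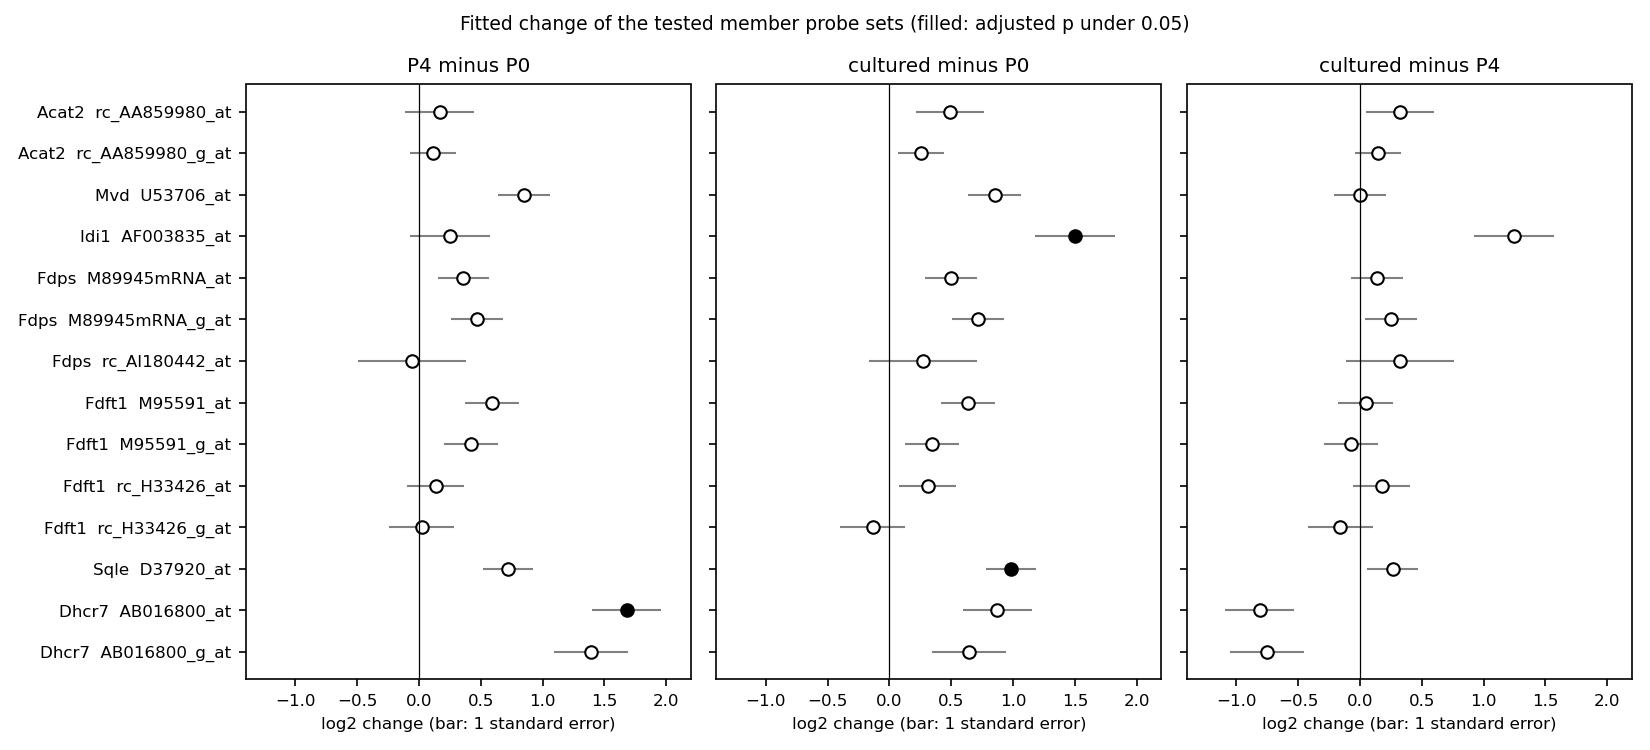
Fitted log2 change, with a bar of 1 standard error, of the 14 tested member probe sets in pathway order for each of the 3 comparisons; filled points passed. AB016800_at of Dhcr7 is the filled point at P4 (1.68), and Idi1 (1.50) and Sqle (0.99) are those of culture against P0.

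Other cell types differed between the same groups. The summed intensity of 8 probe sets of 4 macrophage genes was 255.7 to 429.2 at P0, 165.2 to 215.3 at P4 and 1531 to 3220 in culture, and 2 of the 3 tested genes were called higher in culture than at P0. For 9 probe sets of 5 adipocyte genes the sums were 838.2 to 994.1, 986.6 to 1021 and 2128 to 3173. Of 4 tested genes, 3 were called higher in culture. Plin1, the coat protein of fat droplets, was at or below 20 on all arrays. Lep, the tested gene not called, went the other way on D49653_s_at, which made up most of the P0 sums. That probe set read 760.2 and 653.3 at P0 and 531.5 and 506.4 in culture. D45862_g_at of Lep was also lower in culture, and D45862_at, not tested, overlapped. For 3 erythroid genes the sums fell from 5907 to 6046 at P0 to 113.6 to 153.3 in culture, with 2 of 3 called lower. The part of these cell types in the members' values was not tested.

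The call of Sqle held without P0 replicate 1 (limma adjusted p = 0.0494) or either P4 array, and ended without P0 replicate 2 (0.124), cultured replicate 1 (0.124) or cultured replicate 2 (0.142). That of Idi1 held without either P4 array and ended without P0 replicate 1 (limma adjusted p = 0.0684), P0 replicate 2 (0.13), cultured replicate 1 (0.182) or cultured replicate 2 (0.111), with no filter on dim probe sets (0.059) and without the intensity trend (0.0542).

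Between cultured and P4 ovaries none of the 14 tested member probe sets passed in limma. An unadjusted limma p under 0.05 was seen for 3 of them, and for 14.0% of all tested. Of all tested, 2.16% were called higher and 0.621% lower in culture. Both cultured arrays exceeded both P4 arrays for 5 of 14, against 19.1% of all tested: one probe set each of Acat2, Idi1, Fdps, Fdft1 and Sqle. Both lay below for 2 of 14, against 24.5%, and these were the Dhcr7 pair. Idi1 had the highest difference, 1.25 (SE 0.32, limma adjusted p = 0.0879). It was 1.72 and passed without P4 replicate 1 (limma adjusted p = 0.0236), and with the replicate number as a block over 6 arrays it also passed (0.0479).

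Other steps of cholesterol metabolism were read through lists of genes. Of 9 further enzymes of mevalonate and sterol synthesis, none passed in any of the 3 comparisons by limma. Of their 18 tested probe sets, 1 had an unadjusted p under 0.05 at P4 against P0, 5 in culture against P0 and 2 in culture against P4. Over all tested probe sets these shares were 13.0%, 20.8% and 14.0%, which also stand beside the counts of the next lists. The 19 probe sets of the 9 enzymes had median log2 changes of 0.11 at P4 and 0.31 in culture against P0. Msmo1, a sterol methyl oxidase that acts between Sqle and Dhcr7, read 285.9 and 192.2 at P0, 260.2 and 205.1 at P4, and 381.3 and 429.3 in culture on rc_AI172293_at (log2 change in culture 0.77, SE 0.24, limma adjusted p = 0.109). The cultured arrays were the highest on it, and P0 and P4 overlapped. Cyp51, the sterol demethylase, has 5 probe sets whose changes in culture ran from -0.50 to 1.17. Nsdhl, a sterol dehydrogenase, had one of 0.77 (SE 0.30, limma adjusted p = 0.172), and Mvk, which phosphorylates mevalonate, had -0.59 and -0.17. Msmo1, Cyp51, Nsdhl and Mvk were picked for naming after their values were seen.

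Of 5 genes that sense sterol or regulate these enzymes, none passed in any comparison by limma, and 0, 3 and 1 of their 6 tested probe sets had an unadjusted p under 0.05 in the same order. Insig1, which holds the SREBP complex in the endoplasmic reticulum when sterol is plentiful and is itself an SREBP target, read 129.1 and 95.9 at P0, 118.8 and 135 at P4, and 170.3 and 227 in culture on L13619_at. Both cultured arrays lay above all others, with a log2 change from P0 of 0.78 (SE 0.24, limma adjusted p = 0.103). Its other probe set, L13619_g_at, had a log2 change from P0 of 1.28 (SE 0.44, limma adjusted p = 0.14). On that one culture, at 228.7 and 376.1, overlapped with P4, at 228.8 and 107. Srebf1, which encodes SREBP-1, read 14.3 and 38.1 at P0, 30.6 and 55.3 at P4, and 64.1 and 59.3 in culture (log2 change in culture 1.13, SE 0.38, limma adjusted p = 0.125). Srebf2 was not analysed here.

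Uptake and lysosomal release were read by 4 genes, none of which passed in limma; 0, 2 and 0 of their 8 tested probe sets had an unadjusted p under 0.05. Scarb1, the HDL receptor through which rodent steroid-making cells take up cholesterol ester, had changes in culture against P0 of -0.04 to 0.19 on its 3 probe sets. At P4 they were 0.29 to 0.49, and on AF071495_s_at the arrays read 121.5 and 207.9 at P0, 257 and 200.5 at P4, and 191.4 and 137.5 in culture. P0 overlapped with both other groups there, and culture lay below P4. The 2 probe sets with an unadjusted p under 0.05 in culture against P0, named after their values were seen, were of Vldlr, a lipoprotein receptor (L35767_at, log2 change 0.65, SE 0.28, limma adjusted p = 0.231), and Lipa, the lysosomal acid lipase (S81497_i_at, log2 change 0.46, SE 0.18, limma adjusted p = 0.193). On both, the cultured arrays lay above all P0 and P4 arrays, and the other 2 Lipa probe sets overlapped between culture and P0. The list of esterification, efflux and carriers had 10 genes, among them Acat1, a thiolase that does not esterify cholesterol. Of these 10, Fabp3, a fatty acid carrier of muscle and heart, was lower in culture than at P0 (log2 change -1.80, SE 0.33, limma adjusted p = 0.0146). It was also lower in culture than at P4 (limma adjusted p = 0.0022). The other 9 did not pass.

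Fatty acid synthesis uses the same SREBP system, and 2 of its 6 tested genes were higher in culture than at P0. Scd, a stearoyl-CoA desaturase, read 23.7 and 27.2 at P0, 22.7 and 24 at P4, and 334.5 and 1580.1 in culture on J02585_at (log2 change 4.48, SE 0.55, limma adjusted p = 0.00219). The cultured arrays differed widely between themselves and stood far above all others. The second was Scd2, on 1 of its 5 tested probe sets (M15114_g_at, log2 change 0.90, limma adjusted p = 0.0394). Among 6 tested genes that use cholesterol for steroids, Star, which carries it into mitochondria, was higher at P4 and in culture on AB001349_at (limma adjusted p = 0.0347 and 0.0102). The P0 arrays read 12.7 and 5.2 there, below 20. On AB006007_s_at Star did not pass in either (limma adjusted p = 0.122 and 0.109). Cyp19a1, the aromatase, was higher at P4 than at P0 (limma adjusted p = 0.00995) and lower in culture than at P4 (limma adjusted p = 0.008). It read 132.6 and 85.7 at P4, and below 20 on all P0 and cultured arrays. Tspo, an outer mitochondrial membrane protein, was higher in culture than at P4 (limma adjusted p = 0.0258).

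**Figure D4:**
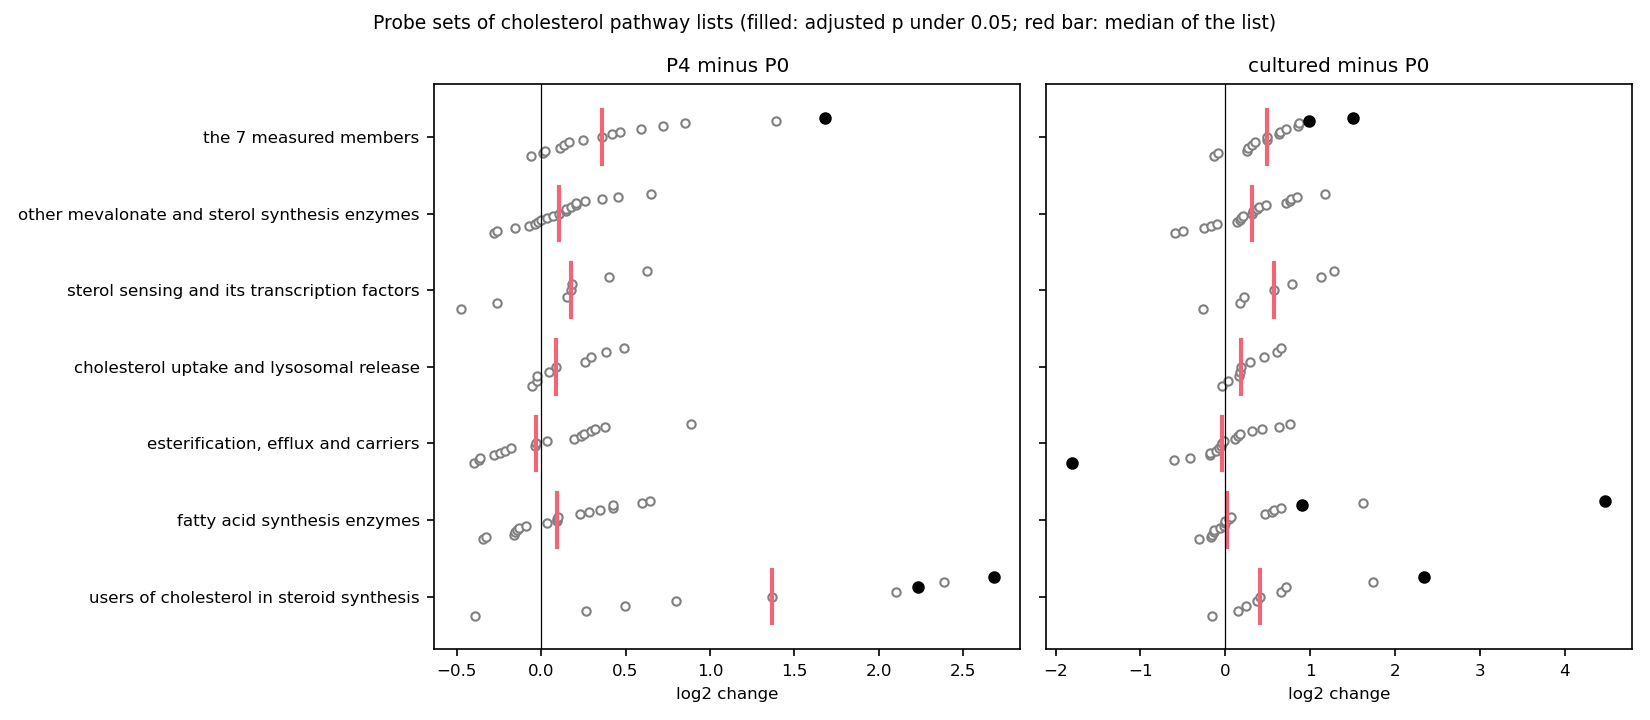
Log2 change of every probe set in the 7 lists for P4 and for culture against P0, dim ones included, with a bar at each list's median and filled points where the adjusted p was under 0.05. The members' medians are 0.36 and 0.50, and those of the other synthesis enzymes 0.11 and 0.31.

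The mean centred profile of the 14 tested member probe sets was -0.20 and -0.53 at P0, 0.34 and -0.06 at P4, and 0.25 and 0.20 in culture, in log2 units. Among 1599 probe sets of other genes that ranged over at least 1 log2 unit, the 5 that followed it most closely across the 6 arrays were those of Aurkb (Pearson r = 0.995), Plin2 (0.995), Irf1 (0.994), Slc7a1 (0.991) and Nfe2l2 (0.988). Plin2, a coat protein of lipid droplets, read 249 and 201.3 at P0, 424.8 and 294.8 at P4, and 374.5 and 371.7 in culture. The correlations are a description over 6 arrays that share scaling, some with a shared chip identifier ending, and carry no test.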

How the data were processed

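Total RNA of pooled ovaries was labelled with biotin and hybridized per the labels' protocols. The deposited table holds linear probe set intensities of 6 arrays and 8799 probe sets, scaled by the authors, and carries no detection calls; the algorithm is not given in the sources used here. Values were not normalized further. The 20th percentile, 7.7, was added before log2, 59 control probe sets were left out, and so were 2622 with a mean log2 under the 30th percentile. All 6 arrays entered one model with a mean for each of the 3 groups, in limma 3.58.1 under R 4.3.3. The steps were lmFit, then eBayes with intensity trend, two-sided, and Benjamini-Hochberg over 6118 probe sets. The fit was also run on simulated arrays, drawn independently, with planted changes larger than any of the members'. That run does not cover smaller changes or arrays that vary together. Symbols came from the array annotation: 7018 probe sets had 1, 308 several and 1473 none, and 6994 were matched by gene number to RefSeq. With 2 arrays a group an exact permutation test cannot go below p = 0.333, so none is given. The small number of arrays limits the precision: the median standard error was 0.26.

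Members, lists, rule and alternatives were chosen with earlier results of these data known. Named were all member probe sets, list genes called in some comparison, Scarb1, Srebf1 and Insig1 whatever their values, and others where stated. The labels describe the RNA pools of a group as independent, with no animals named. The p-values rest on the spread between pools, shared over the 3 groups, and on that of other probe sets of like intensity. The degrees of freedom were 3 for the former and a median of 6.45 for the latter. Each cultured array has a chip identifier ending of its own. Deviations from the group mean of same-numbered P0 and P4 arrays, whose chip identifiers share an ending, correlated at 0.33; with cultured arrays, which share none, at -0.13 and -0.05. The alternatives were another pseudocount, filter, quantile normalization, no trend, only the groups compared, blocks, and each array left out.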

Additional observations from a re-analysis of the deposited data

How the results depend on the processing

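Of 644 values of single member probe sets under the alternatives, 598 kept their direction and side of the threshold. Of the rest, 17 lost a call, 9 gained one and 20 changed sign, none of these with a call. The main fit called 1 value at P4 and 2 in culture, against P0, so most of the 598 were uncalled and stayed so. The call of Dhcr7 held in 8 of 16 alternatives, that of Idi1 in 9 of 15 and that of Sqle in 12 of 15. The count of member probe sets called at P4 against P0, 1, became 0 with no filter on dim probe sets, without the trend or with the 2 groups alone, 3 with the replicate block on P0 and P4 arrays, 4 with the chip identifier as a random block, and 0 to 2 with an array left out. In culture against P0 it was 2, then 1 with no filter or no trend, and 0 to 2 with an array left out; Mvd made it 3 at a filter at the 50th percentile (limma adjusted p = 0.0417). Against P4 it was 0, then 1 with the replicate block on 6 arrays and 0 to 1 with an array left out. Over all probe sets tested, 66 calls at P4 against P0 became 23 with no filter, 29 without the trend, 25 with 2 groups alone, 31 with the 6-array replicate block, 292 with the block on P0 and P4 arrays and 335 with the random block. For culture against P0 or P4, and with an array left out, no count over all probe sets is given here. There a change in member calls cannot be set beside one in all calls. The causes were not tested.

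Sign changes, as ranges with an array left out, were at P4 against P0 -0.16 to 0.49 for Acat2 (rc_AA859980_at), -0.22 to 0.73 for Idi1 (AF003835_at), -0.73 to 0.61 for Fdps (rc_AI180442_at), -0.0547 to 0.33 and -0.21 to 0.26 for Fdft1 (rc_H33426_at, rc_H33426_g_at). In culture against P0 they were -0.25 to 0.78 for that Fdps and -0.37 to 0.10 for the second Fdft1. In culture against P4 they were -0.0898 to 0.0897 for Mvd, -0.0326 to 0.30 and -0.34 to 1.00 for Fdps (M89945mRNA_at, rc_AI180442_at), and -0.15 to 0.24 and -0.18 to 0.0357 for Fdft1 (M95591_at, M95591_g_at). The culture to P4 difference of Mvd was 0.0002 at the 40th percentile pseudocount. Changes of this size were not resolved by 2 arrays a group.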
